A study of Mus musculus with 6 samples.

Results

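The fibroblast growth factor (FGF) ligands *Fgf1*, *Fgf2*, *Fgf7*, *Fgf9*, *Fgf10*, *Fgf18* and *Fgf21* and the receptors *Fgfr1*, *Fgfr2* and *Fgfr3* were followed in cultured calvarial preosteoblasts. These 10 genes were taken by exact gene symbol from the 17001 rows of the expression table, and all 10 had a row. Donor pups were 3 days old, and the calvarial cells grew in α-MEM with 10% serum. Poly(A) RNA was sequenced from 3 control libraries (*Nell2* fx/fx, both alleles floxed, no Cre) and 3 libraries labelled cKO (Col1-cre; *Nell2* fx/fx, floxed alleles plus Cre driven by a fragment of the mouse Col1a1 promoter). Both groups therefore carried the floxed alleles, and the control group had no Cre-only counterpart. Whether each library came from 1 pup or from pooled pups is not given in the sources used here, so p-values measure the spread between these libraries only. The question behind the comparison was what loss of NELL2, a secreted glycoprotein, does to gene expression in these bone cell precursors.

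FGFs are secreted proteins that bind receptor tyrosine kinases on the cell surface, with heparan sulfate as a cofactor for most of them, and the receptors then signal through the adaptor FRS2 to the RAS and ERK cascade. In the skull vault, FGF signalling controls the growth and differentiation of osteoprogenitors at the sutures, and activating mutations of FGFR1, FGFR2 or FGFR3 cause premature suture fusion or dwarfism. FGF21 differs from the rest, since it acts as a hormone and needs the co-receptor beta-Klotho, and its gene is a known target of the stress-responsive transcription factor ATF4.

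Values are FPKM (the fragments on a gene divided by its transcript length and by the size of the library), computed by the authors and rounded to 2 decimals, so levels can be set beside each other across genes. Depth is unknown because no read counts were used, so values carry no counting interval. *Nell2* itself was at 3.17, 2.59 and 1.88 FPKM in the controls and at 5.64, 1.61 and 5.74 FPKM in the libraries labelled cKO 1, 2 and 3. Of the libraries labelled cKO, 2 were thus above every control and 1 was below, with a log2 difference of 0.48 (adjusted p = 0.591 from limma). The targeted gene at this level does not check the labels, since gene-level FPKM does not separate the floxed part from the rest of the transcript, and every direction given here follows them. Y-linked transcripts were present in 1 control library (replicate 3) and in 2 libraries labelled cKO (replicates 1 and 3), so the sex of the pups was not balanced. Osteoblast lineage markers were present in all libraries, with *Col1a1* between 8053 and 8578 FPKM and *Runx2* between 10.98 and 14.71 FPKM. Endothelial markers were low, with a summed level between 1.84 and 3.87 FPKM over 5 genes. Skeletal muscle markers summed to between 38.7 and 76.4 FPKM in the controls and between 50.6 and 61.0 FPKM in the libraries labelled cKO. Macrophage markers summed to 33.3 to 86.4 FPKM in the controls and 44.6 to 68.8 FPKM in the libraries labelled cKO.

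The FGF genes covered a wide range of levels. *Fgfr1* was the highest, with a mean of 92.0 FPKM over the 6 libraries, above 94.7% of all rows. *Fgfr2* followed at 36.6 FPKM and *Fgf7*, the highest ligand on average, at 14.9 FPKM. *Fgf21* (8.69 FPKM), *Fgf2* (4.62 FPKM), *Fgf18* (2.79 FPKM) and *Fgfr3* (1.89 FPKM) lay in the middle. *Fgf10* (0.467 FPKM), *Fgf9* (0.400 FPKM) and *Fgf1* (0.108 FPKM) were near the bottom, *Fgf1* above only 17.6% of rows. Over the 6 libraries the ranges of *Fgfr1* and *Fgfr2*, of *Fgfr2* and *Fgf7*, of *Fgfr3* and *Fgf10*, and of *Fgf9* and *Fgf1* did not overlap, so these steps in the order held in every library. The other neighbours (*Fgf7* and *Fgf21*, *Fgf21* and *Fgf2*, *Fgf2* and *Fgf18*, *Fgf18* and *Fgfr3*, *Fgf10* and *Fgf9*) overlapped and are not ordered beyond their spread. The place of *Fgf21* in this order depended on the group. In the controls all *Fgf2* values (3.34 to 5.65 FPKM) were above all *Fgf21* values (2.11 to 3.09 FPKM), and in the libraries labelled cKO all *Fgf21* values (5.56 to 20.39 FPKM) were above all *Fgf2* values (4.3 to 4.94 FPKM).

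**Figure D1:**
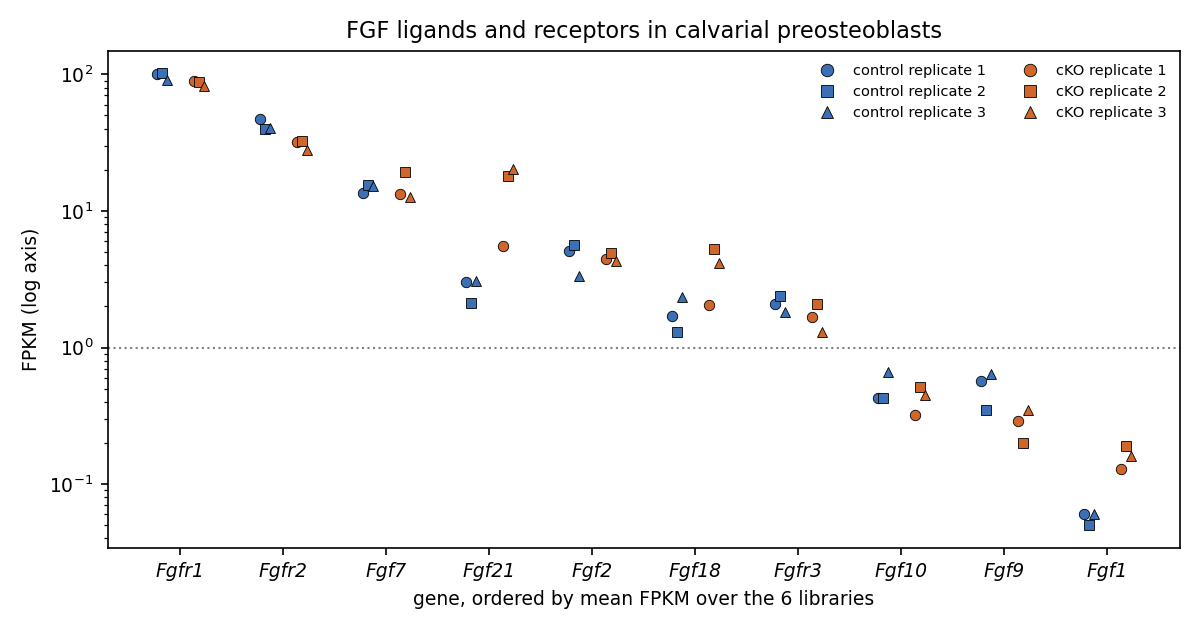
FPKM on a log axis for the 10 FGF genes, 1 point per library, blue for control and orange for libraries labelled cKO, with marker shape giving the replicate number and a dotted line at an FPKM of 1. *Fgf21* is the gene with the largest ratio of group means (5.34), *Fgf7* and *Fgf2* overlap, and *Fgf10*, *Fgf9* and *Fgf1* lie below the line in all 6 libraries.

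The groups were compared on log2(FPKM + 1) with limma's moderated test over the 11590 rows that reached an FPKM of 1 in 3 or more libraries. Of the 10 FGF genes, 7 passed this filter and 3 (*Fgf1*, *Fgf9* and *Fgf10*) did not. None of the 7 had an adjusted p under 0.05 in limma with Benjamini-Hochberg adjustment, where 0% of all tested genes did. An unadjusted p under 0.05 was found for 3 of the 7 (*Fgf21* and *Fgf18* higher, *Fgfr2* lower in the libraries labelled cKO), against 13.1% of all tested genes (5.37% higher and 7.76% lower). The groups did not overlap in 3 of the 7 (*Fgf21* higher, *Fgfr1* and *Fgfr2* lower), against 18.3% of all tested genes (6.51% higher and 11.8% lower). The 7 genes had a median log2 fold change of -0.01, beside -0.02 over all tested genes. The library labelled cKO replicate 1 weighed on these counts. Without it, 2 of the 7 genes (*Fgf21* and *Fgf18*) had an adjusted p under 0.05, where 2.9% of the genes tested in that fit did. The number of non-overlapping FGF genes was 5 without control replicate 3 (33.8% of all genes tested in that fit) and also 5 without cKO replicate 2 (25.9% of all genes).

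Among the receptors, all 3 had lower means in the libraries labelled cKO, and *Fgfr2* differed most. *Fgfr2* encodes the receptor that is mutated in Apert and Crouzon syndromes, and the gene spans chr7:130162451-130266808 (GRCm38, minus strand). The controls had 46.77, 39.84 and 40.66 FPKM (replicates 1 to 3), and the libraries labelled cKO had 31.77, 32.55 and 28.02 FPKM. Every library labelled cKO lay below every control. The mean was 42.4 ± 3.79 FPKM (SD, n = 3) in the controls and 30.8 ± 2.42 FPKM (SD, n = 3) in the libraries labelled cKO, 72.6% of the control mean. On the log2(FPKM + 1) scale the difference was -0.45 (standard error 0.09, 95% interval from -0.66 to -0.23, unadjusted p = 0.00171, adjusted p = 0.312 from limma), so it did not pass adjustment over all genes. The log2 difference stayed between -0.49 and -0.38 in the 16 settings tried, and the adjusted p between 0.0772 and 0.671. *Fgfr2* shares 314 exon bases with *Ctbp2* on the same strand in the annotation, and *Ctbp2* was at 18.38 to 19.25 FPKM in the controls and 17.28 to 20.81 FPKM in the libraries labelled cKO.

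*Fgfr1*, the most abundant receptor here and a receptor typical of mesenchymal cells (chr8:25518759-25575718, plus strand), differed less. It was at 99.65, 101.6 and 90.92 FPKM in the controls and at 89.96, 87.44 and 82.64 FPKM in the libraries labelled cKO. The groups did not overlap, but control replicate 3 and cKO replicate 1 lay within 1 FPKM of each other, and the groups overlapped when the libraries were scaled to the same median. The means were 97.4 ± 5.69 FPKM and 86.7 ± 3.72 FPKM (SD, n = 3 each), and the log2 difference was -0.17 (standard error 0.07, unadjusted p = 0.0517, adjusted p = 0.381 from limma). *Fgfr3*, best known as a brake on growth plate chondrocytes (chr5:33721724-33737068, plus strand), was low. It was at 2.09, 2.37 and 1.81 FPKM in the controls and at 1.66, 2.09 and 1.29 FPKM in the libraries labelled cKO, and the groups overlapped. Its log2 difference was -0.21 (standard error 0.12, 95% interval from -0.50 to 0.08, adjusted p = 0.487 from limma). The *Fgfr3* locus shares 998 exon bases with *G630022F23Rik* on the opposite strand, and whether reads were counted by strand is not given in the sources used here, so reads of the 2 genes may not be told apart; *G630022F23Rik* was not analysed here.

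The balance of the receptors was described from the same values, with no test. *Fgfr1*, *Fgfr2* and *Fgfr3* summed to 133 to 149 FPKM in the controls and to 112 to 123 FPKM in the libraries labelled cKO. *Fgfr2* made up 29.9% ± 1.96 of this sum in the controls and 25.8% ± 0.819 in the libraries labelled cKO (SD, n = 3 each). The ratio of *Fgfr1* to *Fgfr2* was 2.13, 2.55 and 2.24 in the controls and 2.83, 2.69 and 2.95 in the libraries labelled cKO, so the ratio did not overlap between the groups either. *Fgfr3* made up 1.15% to 1.71% of the sum in all 6 libraries. Gene-level FPKM does not separate the IIIb splice form of *Fgfr2*, used by epithelia and bound by FGF7 and FGF10, from the IIIc form of mesenchyme.

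**Figure D2:**
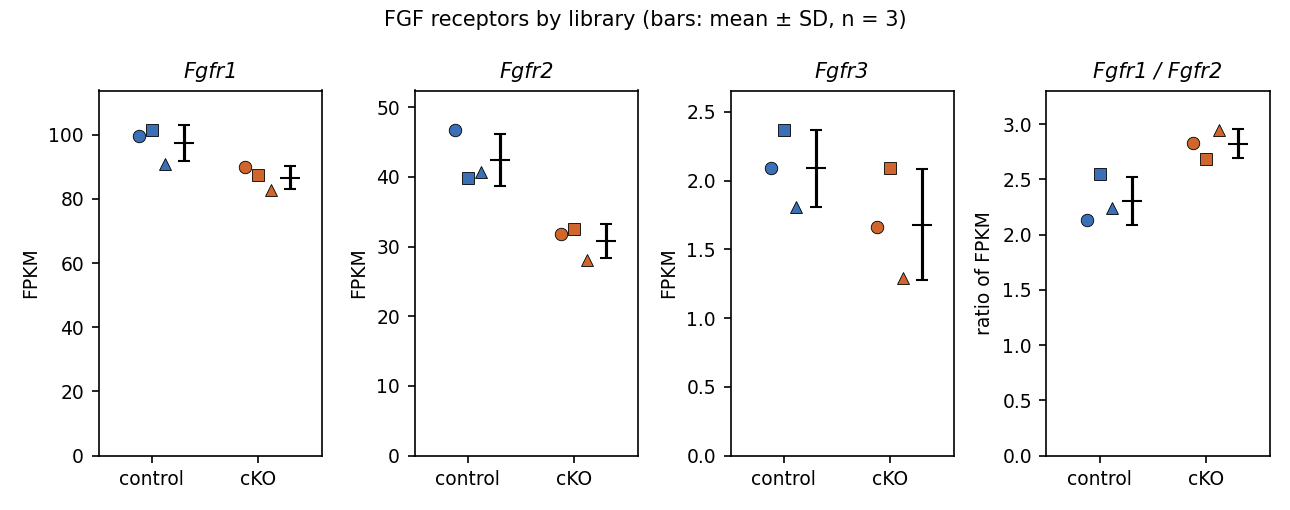
FPKM of *Fgfr1*, *Fgfr2* and *Fgfr3* and the ratio of *Fgfr1* to *Fgfr2* by group, with 1 point per library (marker shape as the replicate number) and black bars for the mean ± SD of 3 libraries, all axes starting at 0. *Fgfr2* lies in separate ranges, 39.84 to 46.77 FPKM in controls and 28.02 to 32.55 FPKM in libraries labelled cKO, whereas the *Fgfr3* points overlap.

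Markers of bone cell maturation and of other cell types also differed between these groups in unadjusted tests, and their part in the receptor and ligand values was not tested. None of these markers passed adjustment, and the share of all tested genes with an unadjusted p under 0.05 was 13.1% (5.37% higher, 7.76% lower). Of 8 osteoblast lineage markers, 4 had an unadjusted p under 0.05 and all 4 were lower in the libraries labelled cKO. They were *Sp7*, *Alpl*, *Bglap* and *Ibsp*. Of the 8, 2 had a log2 difference above 0 (*Spp1* 0.12 and *Col1a2* 0.04), and those of *Col1a1* and *Runx2* were -0.01 and -0.21. *Alpl*, the alkaline phosphatase of mineralizing cells, was at 36.44, 33.08 and 25.15 FPKM in the controls and at 23.09, 22.65 and 22.03 FPKM in the libraries labelled cKO, with no overlap. The 7 epithelial markers summed to 5.81 to 16.5 FPKM in the controls and to 26.4 to 46.4 FPKM in the libraries labelled cKO, and 3 of the 4 that passed the filter had an unadjusted p under 0.05, all higher (*Krt8*, *Krt18* and *Epcam*). *Epcam* passed the filter only through the libraries labelled cKO. *Krt8* and *Krt18* were at 0.14 and 0.23 FPKM in control replicate 1, so they too passed only with libraries labelled cKO. These 3 differences are therefore not independent of that filter. The *Krt8* groups overlapped, with 5.81 FPKM in control replicate 3 and 5.74 FPKM in cKO replicate 3. Of the 7, 2 (*Krt5* and *Krt14*) were listed at 0 in at least 2 libraries. Of 6 chondrocyte markers, 5 passed the filter and 3 (*Acan*, *Col9a1* and *Comp*) had an unadjusted p under 0.05, all higher, only *Col9a1* without overlap. The summed level was 99.2 to 168 FPKM in the controls and 154 to 179 FPKM in the libraries labelled cKO, so the sums overlapped. *Col2a1*, the largest part of the sum, was at 63.59 to 127.69 FPKM in the controls and 103.05 to 125.97 FPKM in the libraries labelled cKO. In that list *Matn1* was listed at 0 in 5 of 6 libraries. Of 6 adipocyte markers, 4 passed the filter and 2 (*Fabp4* and *Pparg*) had an unadjusted p under 0.05, both higher, with a summed level of 34.9 to 50.9 FPKM in the controls and 76.1 to 119.55 FPKM in the libraries labelled cKO, while *Adipoq* and *Plin1* stayed below an FPKM of 1. Macrophage, endothelial and skeletal muscle markers had 0 genes with an unadjusted p under 0.05 in limma, of 4, 1 and 5 that passed the filter. In bulk RNA, fewer cells of a type and less RNA per cell cannot be told apart.

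*Fgf21* had the largest difference of the 4 ligands tested. It was at 3.02, 2.11 and 3.09 FPKM in the controls and at 5.56, 17.94 and 20.39 FPKM in the libraries labelled cKO. The groups did not overlap, but cKO replicate 1 lay much closer to the controls than to replicates 2 and 3. The mean was 2.74 ± 0.547 FPKM in the controls and 14.6 ± 7.95 FPKM in the libraries labelled cKO (SD, n = 3 each), a ratio of means of 5.34. On the log2(FPKM + 1) scale the difference was 1.90 (standard error 0.43, 95% interval from 0.89 to 2.91, unadjusted p = 0.00311, adjusted p = 0.312 from limma), so it did not pass adjustment. Without the library labelled cKO replicate 1 it was 2.44 with an adjusted p of 0.00299 in limma, and over the 16 settings the adjusted p ranged from 0.00299 to 0.671. Among libraries with Y-linked transcripts *Fgf21* was at 3.09 FPKM in the control and at 5.56 and 20.39 FPKM in cKO. Among those without them it was at 3.02 and 2.11 FPKM in controls and at 17.94 FPKM in cKO. Each comparison has only 1 library in a group, so this split does not test the part of sex. For *Fgf18* the groups overlapped among libraries with Y-linked transcripts (2.33 FPKM in the control, 2.03 and 4.18 FPKM in cKO). *Klb*, which encodes the beta-Klotho co-receptor that FGF21 needs, was listed at 0 in 5 libraries and at 0.02 FPKM in cKO replicate 2.

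The *Fgf21* gene spans chr7:45613890-45615490 (GRCm38, minus strand). Because ATF4 regulates it, the letters TGATGNAA, the core of the C/EBP-ATF response element through which ATF4 acts, were searched on both strands of the RefSeq promoters (GRCm38.p6, 250 bases before to 50 after each start). They occurred in 3.97% of all 32851 promoters. Of the 9 promoters of the 8 FGF genes with a promoter in the table, 1 held them (*Fgf21* alone). In a list of ATF4 and its targets, 4 of 15 promoters held them, in 4 of 12 genes. *Fgf1* and *Fgfr1* had no promoter in the table. The 250 bases before the *Fgf21* start, chr7:45615491-45615740 on the minus strand, are shown because they hold the match, in capitals on the opposite strand and starting 139 bases before the start.
Fgf21: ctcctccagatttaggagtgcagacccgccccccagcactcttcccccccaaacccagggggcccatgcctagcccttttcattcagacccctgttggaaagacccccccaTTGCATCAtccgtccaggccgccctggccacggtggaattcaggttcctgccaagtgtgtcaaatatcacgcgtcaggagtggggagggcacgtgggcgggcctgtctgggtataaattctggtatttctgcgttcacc

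Windows of 30 bases around the matches of 3 ATF4 list genes are given for comparison with *Fgf21*, each on the strand of its gene with the match in capitals. They lie at chr7:45615611-45615640 (*Fgf21*, minus), chr2:119351038-119351067 (*Chac1*, plus), chr1:191183425-191183454 (*Atf3*, minus) and chr6:7693214-7693243 (*Asns*, minus). *Fgf21*, *Chac1* and *Atf3* share the same 8 letters on the opposite strand, and *Asns* holds its match on the same strand, 23 bases before its start. The match is a description of letters and not evidence of binding.
Fgf21: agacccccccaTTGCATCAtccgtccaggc
Chac1: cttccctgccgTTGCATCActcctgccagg
Atf3: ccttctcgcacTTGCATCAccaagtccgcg
Asns: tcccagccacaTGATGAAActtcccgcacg

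The 12 genes of the ATF4 list all had higher means on the log2 scale in the libraries labelled cKO. Their log2 fold changes had a median of 0.74, beside -0.02 over all tested genes. In limma, 0 of the 12 had an adjusted p under 0.05. An unadjusted p under 0.05 was found for 11 of the 12, all higher, against 13.1% of all tested genes (5.37% higher and 7.76% lower). The list was chosen with earlier results of these libraries known, so the count is a description. It was 6 without control replicate 1, control replicate 2, cKO replicate 2 or cKO replicate 3, where the count over all genes also fell, from 1521 to between 852 and 956. It was 9 without control replicate 3 and 12 without cKO replicate 1 (1586 and 2459 over all genes). *Trib3*, a pseudokinase induced by ATF4, was at 7.71, 6.6 and 13.37 FPKM in the controls and at 16.68, 51.38 and 50.95 FPKM in the libraries labelled cKO. *Atf5*, a related transcription factor, was at 58.75, 48.85 and 80.31 FPKM in the controls and at 88.62, 139.22 and 123.42 FPKM in the libraries labelled cKO. *Asns*, asparagine synthetase, was at 58.49, 50.59 and 71.64 FPKM and at 75.1, 109.99 and 102.58 FPKM. *Atf4* mRNA itself was at 175, 171 and 187 FPKM in the controls and at 200, 280 and 271 FPKM in the libraries labelled cKO. In these 4 genes, as in *Fgf21*, cKO replicate 1 was the lowest of the libraries labelled cKO and still above every control. The groups did not overlap in 8 of the 12 (6.51% of all tested genes were higher without overlap). In the other 4 (*Atf3*, *Gdf15*, *Psat1* and *Phgdh*) cKO replicate 1 lay within or below the control range, and *Gdf15*, a circulating stress hormone, was lowest there at 0.96 FPKM.

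**Figure D3:**
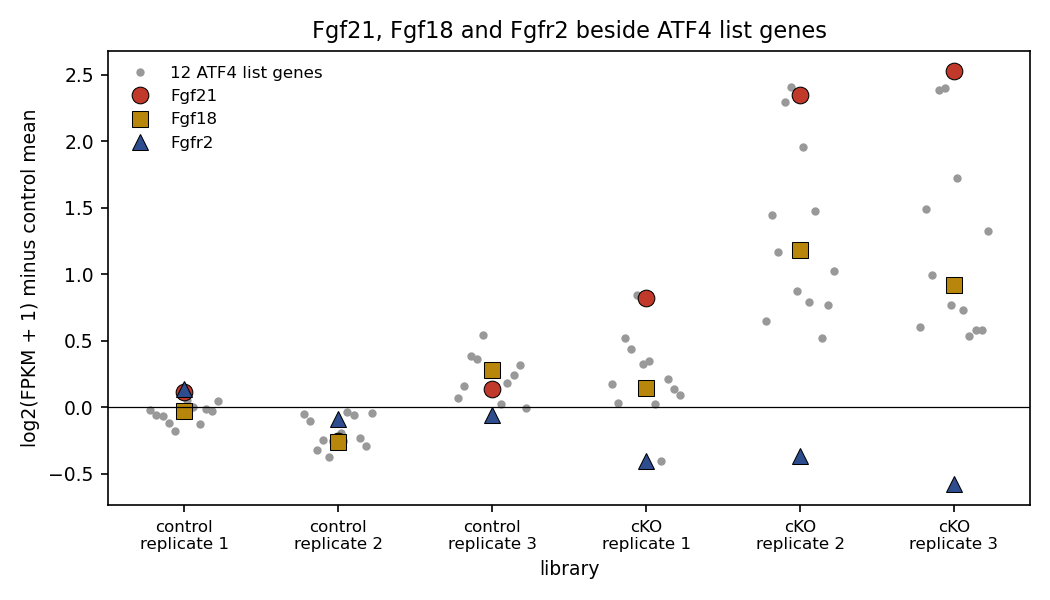
Log2(FPKM + 1) minus the mean of the 3 controls, in each library, for *Fgf21* (red circles), *Fgf18* (yellow squares), *Fgfr2* (blue triangles) and the 12 ATF4 list genes (grey dots). In cKO replicates 2 and 3 *Fgf21* (17.94 and 20.39 FPKM) and *Fgf18* (5.23 and 4.18 FPKM) lie above their controls, and *Fgfr2* is below 0 in all 3 libraries labelled cKO.

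Among 11442 other tested genes, those whose log2 values followed *Fgf21* most closely over the 6 libraries were *Adm2*, a peptide hormone (Pearson r = 0.9997), *Gtpbp2*, a GTP-binding protein of ribosome rescue (r = 0.997), and *Nars*, the cytosolic asparaginyl-tRNA synthetase (r = 0.997). *Adm2* was at 2.31, 1.61 and 2.19 FPKM in the controls and at 3.93, 11.8 and 13.15 FPKM in the libraries labelled cKO. For *Fgf18* they were *Cpox*, a heme synthesis enzyme (r = 0.999), *Col15a1*, a collagen chain (r = 0.998), and *Lsm14a*, an RNA-binding protein (r = 0.997). For *Fgfr2* they were *Atpsckmt*, a lysine methyltransferase (r = 0.993), *Wdr70*, a WD repeat protein (r = 0.993), and *Inpp1*, an inositol phosphatase (r = 0.989). These are the 3 highest of many correlations over 6 libraries in 2 groups and serve only to describe the patterns.

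*Fgf18*, a ligand of developing calvarial bone that promotes osteogenesis (chr11:33116970-33147400, minus strand), was at 1.69, 1.29 and 2.33 FPKM in the controls and at 2.03, 5.23 and 4.18 FPKM in the libraries labelled cKO. Replicates 2 and 3 labelled cKO were above all controls, and replicate 1 lay within the control range. The means were 1.77 ± 0.525 and 3.81 ± 1.63 FPKM (SD, n = 3 each), and the log2 difference was 0.75 (standard error 0.27, 95% interval from 0.11 to 1.39, unadjusted p = 0.0282, adjusted p = 0.337 from limma). Without cKO replicate 1 the difference was 1.05 with an adjusted p of 0.0364 in limma, and over the 16 settings the adjusted p ranged from 0.0364 to 0.691. The unadjusted p was above 0.05 when control replicate 1 (0.0675), control replicate 2 (0.089), cKO replicate 2 (0.0837) or cKO replicate 3 (0.086) was left out.

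*Fgf7*, a mesenchymal ligand that signals to epithelia (chr2:126034658-126091185, plus strand), was the highest ligand in all 3 controls. It was at 13.52, 15.35 and 15.19 FPKM there and at 13.26, 19.31 and 12.55 FPKM in the libraries labelled cKO. The cKO values lay on both sides of the control range. The log2 difference was 0.01 (standard error 0.16, 95% interval from -0.36 to 0.38, adjusted p = 0.984 from limma), and its sign turned without control replicate 1 or without cKO replicate 2. *Fgf2*, a ligand held in bone matrix and a mitogen for osteoprogenitors (chr3:37348477-37410106, plus strand), was at 5.06, 5.65 and 3.34 FPKM in the controls and at 4.46, 4.94 and 4.3 FPKM in the libraries labelled cKO. The controls varied more than the libraries labelled cKO and spanned all of them. Its log2 difference was -0.01 (standard error 0.16, 95% interval from -0.38 to 0.36, adjusted p = 0.986 from limma), with a sign that turned in 6 settings (median scaling, the Y-linked covariate, and without control replicate 1, control replicate 2, cKO replicate 1 or cKO replicate 3). The intervals of both genes leave room for a difference of that size in either direction. *Fgf2* shares 640 exon bases with *Nudt6* on the opposite strand, which was at 3.15 to 3.72 FPKM in the controls and at 3.47 to 4 FPKM in the libraries labelled cKO, and without strand their reads cannot be told apart.

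The 3 ligands below the filter reached at most 0.66 FPKM in any library. *Fgf1* (0.05 to 0.19 FPKM) lay near the rounding step of the values, and the unknown depth limits all 3. *Fgf9*, a ligand of skeletal mesenchyme, was at 0.57, 0.35 and 0.64 FPKM in the controls and at 0.29, 0.2 and 0.35 FPKM in the libraries labelled cKO. The groups met at 0.35. *Fgf10*, a mesenchymal ligand of epithelial FGFR2, was at 0.43, 0.43 and 0.66 FPKM and at 0.32, 0.51 and 0.45 FPKM, and the groups overlapped. *Fgf1*, a ligand that binds every FGF receptor, was at 0.06, 0.05 and 0.06 FPKM in the controls and at 0.13, 0.19 and 0.16 FPKM in the libraries labelled cKO, with no overlap. In a fit of all 17001 rows with a pseudocount of 0.1, chosen after these low values were seen, the log2 difference was 0.73 for *Fgf1* (adjusted p = 0.372), -0.69 for *Fgf9* (adjusted p = 0.486) and -0.20 for *Fgf10* (adjusted p = 0.722 from limma). With no filter and the pseudocount of 1, 6 of the 10 FGF genes had an unadjusted p under 0.05, against 11.7% of all rows. *Fgf1*, *Fgf9* and *Fgfr1* were the additional ones.

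Summed, the 7 ligands gave 24.4, 25.2 and 25.3 FPKM in the controls and 26.1, 48.3 and 42.4 FPKM in the libraries labelled cKO. *Fgf21* held 8.36% to 12.4% of this sum in the controls and 21.3%, 37.1% and 48.1% in cKO replicates 1, 2 and 3. In cKO replicate 3 it was above *Fgf7*, and in the other 5 libraries it was below. Without *Fgf21* the sum was 21.33, 23.12 and 22.22 FPKM in the controls and 20.49, 30.38 and 21.99 FPKM in the libraries labelled cKO, so the groups overlapped.

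**Figure D4:**
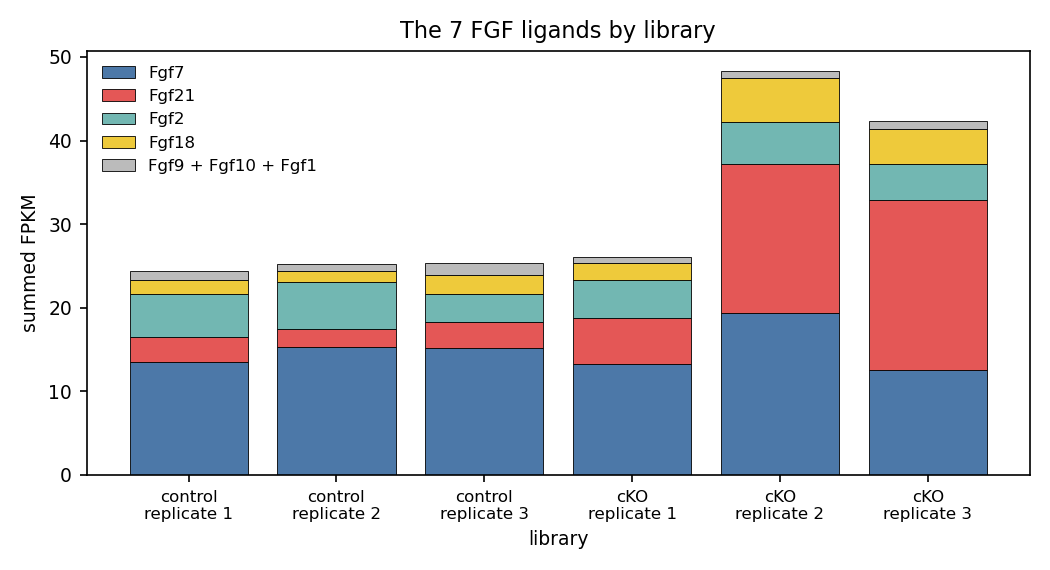
Stacked bars of the FPKM of the 7 FGF ligands in each library, with *Fgf7* in blue, *Fgf21* in red, *Fgf2* in green, *Fgf18* in yellow and the sum of *Fgf9*, *Fgf10* and *Fgf1* in grey. The red part is at most 3.09 FPKM in the controls and reaches 17.94 and 20.39 FPKM in cKO replicates 2 and 3.

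Of 11 further ligand genes, 7 had a row and 1, *Fgf5*, passed the filter. *Fgf5*, a regulator of the hair cycle, was at 0.32, 0.96 and 0.87 FPKM in the controls and at 1.36, 1.43 and 1.64 FPKM in the libraries labelled cKO, with no overlap. It passed the filter only through the libraries labelled cKO, so its difference (log2 0.55, adjusted p = 0.312 from limma) is not independent of that filter. The other 6, which include *Fgf22* and *Fgf23*, were at 0.21 FPKM or below, and *Fgf4*, *Fgf8*, *Fgf15* and *Fgf20* were not analysed here. Of the 4 FGF homologous factors, which stay inside the cell, *Fgf13* passed the filter, at 1.88, 0.93 and 1.36 FPKM in the controls and 1.17, 2.42 and 2.78 FPKM in the libraries labelled cKO (adjusted p = 0.521 from limma).

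Of 10 other receptors, binding proteins and co-receptors, 5 passed the filter and 1 had an unadjusted p under 0.05 (13.1% over all tested genes). That was *Fgfbp3*, an FGF carrier protein, at 1.27, 0.96 and 1.03 FPKM in the controls and 1.41, 1.49 and 1.25 FPKM in the libraries labelled cKO, and its groups overlapped. With control replicate 2 below 1 FPKM, *Fgfbp3* passed the filter only with libraries labelled cKO, so its difference is not independent of that filter. *Fgfrl1*, a receptor without a kinase domain, was at 13.61, 14.49 and 16.55 FPKM and at 12.26, 22.45 and 15.99 FPKM (adjusted p = 0.779 from limma). *Cdh2* and *Flrt2*, membrane partners of FGF receptors, were at 31.3 to 37.1 FPKM and 15.6 to 19.8 FPKM over the 6 libraries. *Fgfr4*, under the filter, was at 0.84, 0.69 and 0.61 FPKM in the controls and 0.51, 0.56 and 0.53 FPKM in the libraries labelled cKO. It was lower there without overlap (adjusted p = 0.482 from limma, no filter and pseudocount 0.1). *Fgfr1* and *Fgfr2* were thus the receptors of this family above 10 FPKM besides *Fgfrl1*.

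The heparan sulfate machinery that FGFs need was expressed throughout. All 10 core proteins passed the filter, with a median log2 fold change of 0.03, and 1 had an unadjusted p under 0.05 (13.1% over all tested genes). That was *Gpc1*, a glypican and FGF co-receptor, at 204.63, 196.73 and 152.91 FPKM in the controls and 155.9, 121.67 and 143.41 FPKM in the libraries labelled cKO (log2 difference -0.39, adjusted p = 0.329 from limma), where cKO replicate 1 overlapped control replicate 3. All 12 enzymes passed, with a median of -0.05, and 3 had an unadjusted p under 0.05 (13.1% over all tested genes). *Glce*, the epimerase of the chain, was at 10.58, 11.32 and 12.98 FPKM in the controls and 13.13, 17.17 and 17.53 FPKM in the libraries labelled cKO. *Hs6st2*, a sulfotransferase, was at 21.84, 18.15 and 21.35 FPKM and at 18.29, 14.62 and 15.86 FPKM. *Sulf2*, which removes sulfate outside the cell, was at 143.27, 121.27 and 122.52 FPKM and at 109.35, 107.79 and 114.11 FPKM. *Glce* was thus higher and *Sulf2* lower without overlap, while *Hs6st2* overlapped, and none of these passed adjustment. Of the 12 enzymes, 1 was higher and 2 were lower without overlap, against 6.51% and 11.8% of all tested genes.

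Of 19 adaptors and ERK cascade genes, 2 had an unadjusted p under 0.05 (13.1% over all tested genes), both lower in the libraries labelled cKO, and the median log2 fold change was -0.04. *Hras* was at 45.4, 54.89 and 47.55 FPKM in the controls and 40.92, 40.9 and 43.24 FPKM in the libraries labelled cKO. *Ptpn11*, which encodes the phosphatase SHP2, was at 33.14, 34.47 and 31.48 FPKM and at 30.51, 28.56 and 29.14 FPKM. Both differences were small (log2 -0.23 and -0.16, adjusted p = 0.337 and 0.362 from limma). *Grb2*, the adaptor that links FRS2 to RAS activation, was at 36.27, 36.69 and 36.57 FPKM and at 35.52, 30.99 and 31.42 FPKM, and *Plcg1*, a phospholipase recruited by FGF receptors, at 17.92, 18.26 and 18.43 FPKM and at 16.16, 17.22 and 17.05 FPKM. Both were lower without overlap but with an unadjusted p above 0.05 (0.0591 and 0.101, limma). *Gab1*, another docking protein, was higher without overlap, at 6.83, 7.07 and 7.16 FPKM and at 7.26, 7.51 and 7.21 FPKM (unadjusted p = 0.368 from limma). Of the 19, 4 were lower and 1 was higher without overlap, against 11.8% and 6.51% of all tested genes. The adaptor *Frs2* was at 10.9 to 11.5 FPKM in the controls and 9.49 to 11.3 FPKM in the libraries labelled cKO.

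Feedback inhibitors and transcriptional targets of FGF signalling serve as its usual readout. Of 16 such genes, 1 had an unadjusted p under 0.05 (13.1% over all tested genes). Higher without overlap were 2 (6.51% over all tested genes), and the median log2 fold change was 0.04. *Dusp4*, an ERK phosphatase, was at 2.24, 2.36 and 2.11 FPKM in the controls and at 2.89, 3.14 and 3.25 FPKM in the libraries labelled cKO, higher without overlap (log2 difference 0.34, unadjusted p = 0.00135, adjusted p = 0.312 from limma). *Dusp6*, another ERK phosphatase and a widely used readout of FGF activity, was at 8.17, 8.34 and 8.95 FPKM and at 8.04, 8.66 and 8.21 FPKM, with overlap (log2 difference -0.03, standard error 0.06). *Spry2*, an inhibitor of receptor tyrosine kinase signalling, was at 7.11, 7.6 and 9.99 FPKM and at 9.31, 10.64 and 9.87 FPKM, with overlap. *Dusp5*, an ERK phosphatase of the nucleus, was at 4.9, 4.79 and 4.24 FPKM and at 5.26, 5.85 and 4.91 FPKM, so the lowest library labelled cKO lay just above the highest control (unadjusted p = 0.0811 from limma). *Spry1* was at 8.36, 7.82 and 7.51 FPKM and at 9.12, 7.89 and 11.97 FPKM, with overlap (log2 difference 0.24, unadjusted p = 0.118 from limma). *Etv4* and *Etv5*, transcription factors induced by FGF, had log2 differences of 0.12 and 0.06 (adjusted p = 0.754 and 0.780 from limma). The lowest log2 difference of the list was that of *Ccnd1* (-0.40, standard error 0.22, adjusted p = 0.478 from limma), whose groups overlapped.

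**Figure D5:**
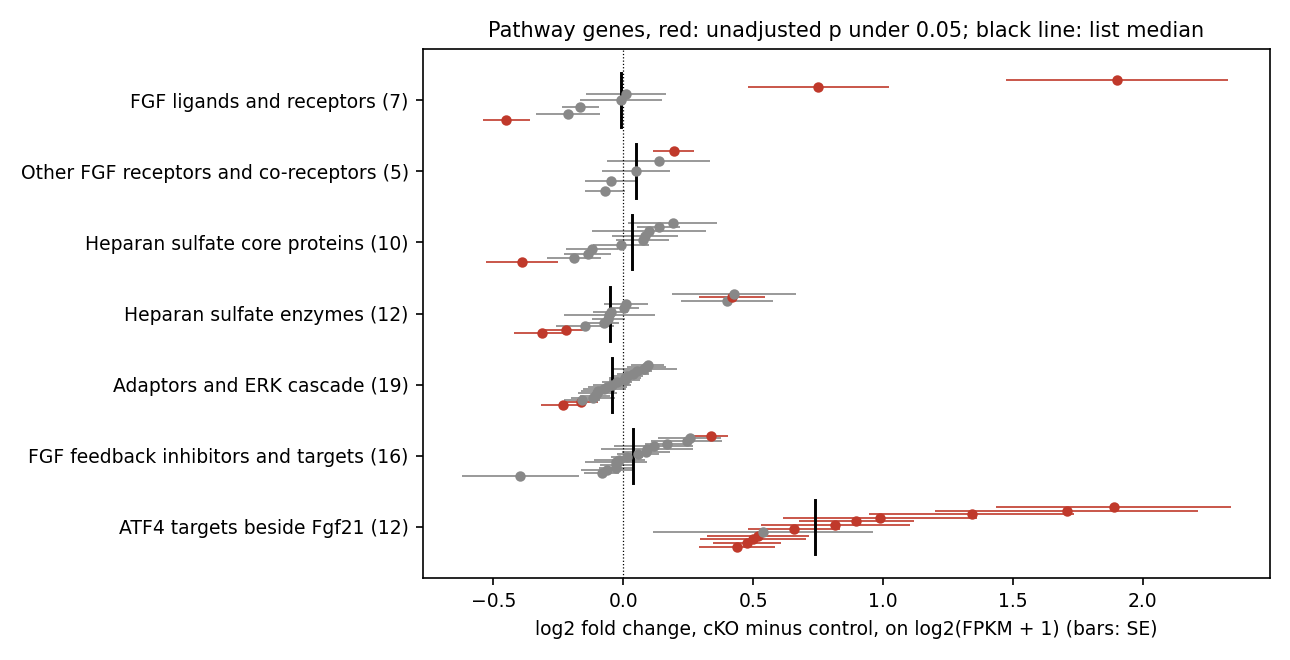
Log2 fold change (libraries labelled cKO minus control, on log2(FPKM + 1)) with its standard error for each gene that passed the filter, by list, with the number of such genes in brackets, red for an unadjusted p under 0.05 and a black line at the list median. The median is 0.05 for the other receptors and co-receptors, 0.03 for heparan sulfate core proteins, -0.05 for heparan sulfate enzymes, -0.04 for the ERK cascade, 0.04 for feedback genes and 0.74 for the ATF4 list.

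Over the 8 pathway lists together, 20 of 76 tested genes had an unadjusted p under 0.05, and 0 had an adjusted p under 0.05 in limma. Outside the ATF4 list it was 9 of 64 (14.1%), near the 13.1% of all tested genes. *Fgf5* and *Fgfbp3*, which passed the filter only with libraries labelled cKO, are among the 9. The 20 became 11 without control replicate 1, 11 without control replicate 2, 10 without cKO replicate 2, 12 without cKO replicate 3 and 23 without cKO replicate 1.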

How the data were processed

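RNA of 6 libraries (3 control, 3 labelled cKO) was sequenced as 150 bp paired-end reads. Per the labels and the study's methods, the authors mapped reads with HISAT2 (GRCm38), named DESeq for normalization, and deposited FPKM values rounded to 2 decimals, although the file is named as raw counts. The annotation release, the FPKM program and strand handling are not given in the sources used here. In rows at 0 in at least 2 libraries, too few low values (1 to 6 rows per library) were shared to recover depth.

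Groups came from the sample titles. Log2(FPKM + 1) was fitted with limma 3.58.1 (lmFit, eBayes, Benjamini-Hochberg) in R 4.3.3 over rows that reached 1 FPKM in 3 or more libraries, two-sided, and the script was tested on simulated data. Another 14 settings were planned (pseudocount 0.1, 2 other filters, variance trend, 2 scalings, replicate block, Y-linked covariate, each library left out) and 1 was added. The members and lists were chosen with earlier results of these data known. Named genes are the 10 FGF genes, *Nell2*, up to 4 genes per pathway list by smallest p (ligand, receptor and co-receptor lists also by level), and the 3 most correlated genes per FGF gene with an unadjusted p under 0.05. *Atf3*, *Chac1*, *Gdf15*, *Psat1*, *Phgdh*, *Gab1*, *Klb*, *Fgfr4*, *Frs2*, *Dusp6*, *Etv4*, *Etv5*, *Ccnd1*, *Nudt6*, *Ctbp2*, the other unmeasured or low FGF genes and the markers were named outside that rule, after their values were seen. Coordinates and promoters are from RefSeq GRCm38.p6, and strand and exon overlaps from GENCODE M21.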

Additional observations from a re-analysis of the deposited data

How the results depend on the processing

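In the fit with the replicate number as a block, 0 genes and 0 FGF genes had an adjusted p under 0.05 in limma, 1465 genes and 4 FGF genes had an unadjusted p under 0.05, and the FGF pathway lists gave 19, so it changed no adjusted call. Deviations from the group means of same-numbered libraries correlated at 0.03, -0.17 and 0.21 across genes. Control replicate 2 correlated best with cKO replicate 1 (0.28), not with its own number. With 3 libraries per group, these correlations cannot tell whether a shared number marks a pairing. When single libraries were left out, 0 to 334 genes passed adjustment (334 without cKO replicate 1), 852 to 2459 had an unadjusted p under 0.05 (1521 with all libraries), FGF genes with an adjusted p under 0.05 numbered 0 to 2, FGF genes without overlap 3 to 5, and genes of the pathway lists 10 to 23. Without any filter, 6 FGF genes had an unadjusted p under 0.05. *Fgf2* turned to 0.00 (0.0049) under median scaling and to 0.10 with the Y-linked covariate, and ranged from -0.19 to 0.12 with a library left out; *Fgf7* ranged from -0.17 to 0.12. The cause was not tested. *Fgf18*, *Fgf21*, *Fgfr1*, *Fgfr2* and *Fgfr3* kept their direction in all 16 settings. Depth is unknown, which limits *Fgf1*, *Fgf9* and *Fgf10* most.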
